A study of Mus musculus with 6 samples.

Results

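The Kelch-like (Klhl) genes were followed here in mouse tibialis anterior, a fast-contracting muscle at the front of the lower hindlimb. Members were all genes annotated as protein coding whose symbol is Klhl followed by a number, which gave 36 of the 41025 genes in each table. Klhl17 has such a symbol in RefSeq but could not be tied to a row, so it was not analysed here. The libraries came from C57BL/6 mice aged 8 weeks, 3 labelled Mettl21e KO (knockout) and 3 labelled wild type (WT), with no other allele or treatment named. Mettl21e encodes a muscle methyltransferase, and the comparison asks which transcripts differ in muscle without it. The 3 libraries of a label are described as biological replicates. The sources used here do not say how the knockout was made or whether animals were pooled, and p-values measure only the spread between these libraries.

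Klhl proteins share a BTB domain at the front, a BACK domain, and a propeller of kelch repeats at the end. Many of them act as adaptors: the BTB domain holds the scaffold Cullin-3, the kelch propeller holds a client protein, and the assembled ligase attaches ubiquitin to that client. In skeletal muscle KLHL40 and KLHL41 are best known for the opposite, the stabilisation of thin filament proteins, and mutations of either human gene cause nemaline myopathy, a congenital weakness with rod-shaped protein aggregates in the fibres.

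Values were FPKM, the fragments on a gene scaled to its length in kilobases and to the size of the library. Libraries held between 8476591 and 10856669 fragments, so that a single fragment counted for 0.0921 to 0.118 FPKM where the gene was 1 kb long. The summed level of 8 skeletal muscle fibre markers was 76176 to 78492 FPKM in libraries labelled KO and 77299 to 82431 FPKM in those labelled WT, and none of the 8 was at 0 in all libraries. Of 4 neuronal markers Snap25 was at 0 in every library, and the 4 summed to 0.189 to 0.427 FPKM in libraries labelled KO and 0.0493 to 0.211 FPKM in those labelled WT. Mettl21e itself was at 1.64, 1.45 and 1.88 FPKM in libraries labelled KO and at 2.46, 0.309 and 1.23 FPKM in libraries labelled WT. It did not separate the labels, and averaged 1.66 ± 0.217 FPKM in libraries labelled KO and 1.33 ± 1.08 FPKM in those labelled WT (SD, n = 3 each, limma adjusted p = 0.988). Directions below are therefore between libraries labelled KO and libraries labelled WT.

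Of the 36 Klhl genes, 11 averaged at least 10 FPKM over the 6 libraries and are called muscle-abundant here. The next 16 averaged between 1 and 10 FPKM, and 9 stayed below 1 FPKM. Among the 27 Klhl genes that averaged 1 FPKM or more, these 11 reached 10 FPKM, where 46.5% of all 11383 genes at that level did. The 11 muscle-abundant genes held 90.4% ± 0.764 of the summed Klhl FPKM in libraries labelled KO and 90.6% ± 0.344 in those labelled WT (SD, n = 3 each). Klhl41 alone held 44.7% ± 2.17 in libraries labelled KO and 44.1% ± 3.45 in those labelled WT. The lowest muscle-abundant gene was Klhl34 at a mean of 12.8 FPKM, and the highest gene outside was Klhl8 at 9.84 FPKM.

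**Figure D1:**
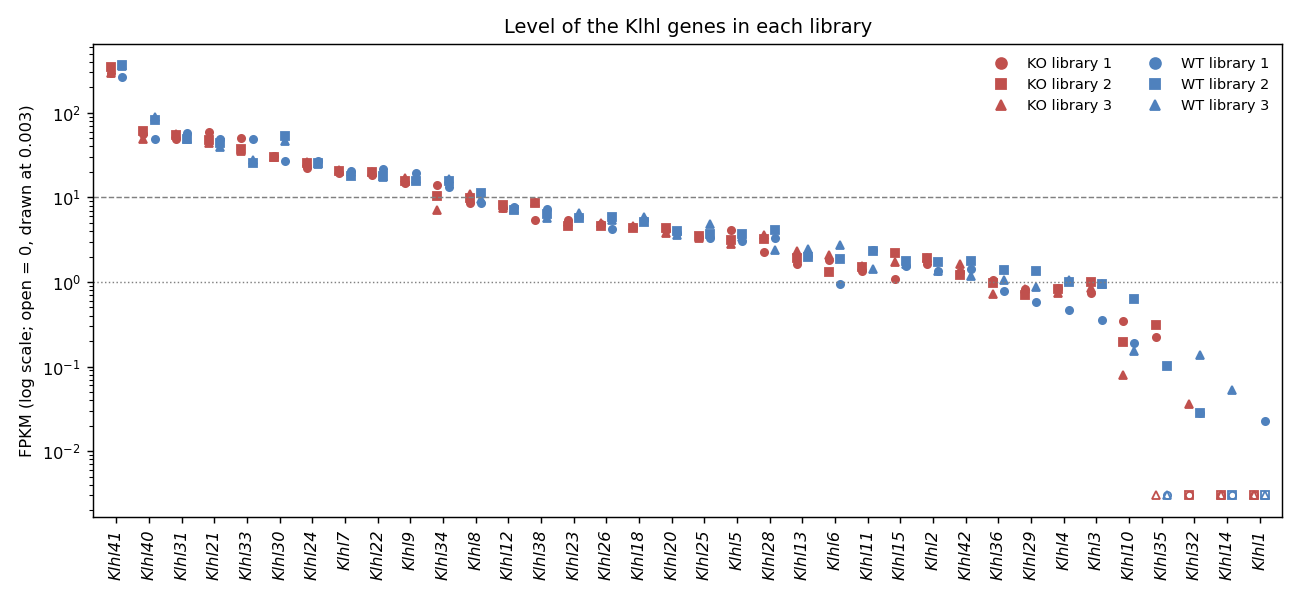
FPKM on a log axis of each of the 36 Klhl genes in each library, ordered by the mean over the 6 libraries; red symbols are libraries labelled KO, blue symbols libraries labelled WT, and open symbols mark 0. The dashed line marks 10 FPKM and the dotted line 1 FPKM; Klhl41 stands alone at the top, and Klhl1 and Klhl14 were above 0 in 1 library each.

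The sequence just before the start of 3 muscle-abundant genes is shown, taken from the RefSeq promoter table (build GRCm38.p6, the mm10 assembly). Of the members analysed here with an entry, only Klhl41 and Klhl33 had a MEF2 box, the word bound by a family of muscle transcription factors. Klhl40, the paralogue of Klhl41 in muscle, is shown beside them. Each is the 250 bases before the RefSeq start, on the strand of the gene, and capitals mark MEF2 boxes and E-boxes (CANNTG, the word bound by myogenic factors such as MyoD). The windows are chr2:69669870-69670119 on the plus strand for Klhl41, chr9:121777357-121777606 on the plus strand for Klhl40 and chr14:50897484-50897733 on the minus strand for Klhl33, whose last 24 bases lie inside the GENCODE gene.
Klhl41: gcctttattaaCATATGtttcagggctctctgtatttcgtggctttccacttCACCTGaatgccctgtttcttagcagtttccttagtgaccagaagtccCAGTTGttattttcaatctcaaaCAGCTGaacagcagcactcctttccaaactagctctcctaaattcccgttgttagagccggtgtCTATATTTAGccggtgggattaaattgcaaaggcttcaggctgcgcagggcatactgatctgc
Klhl40: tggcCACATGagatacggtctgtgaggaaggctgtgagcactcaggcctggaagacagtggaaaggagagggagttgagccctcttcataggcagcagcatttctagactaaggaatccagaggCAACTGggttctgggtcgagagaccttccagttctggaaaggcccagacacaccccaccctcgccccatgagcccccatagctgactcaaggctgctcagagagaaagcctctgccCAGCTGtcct
Klhl33: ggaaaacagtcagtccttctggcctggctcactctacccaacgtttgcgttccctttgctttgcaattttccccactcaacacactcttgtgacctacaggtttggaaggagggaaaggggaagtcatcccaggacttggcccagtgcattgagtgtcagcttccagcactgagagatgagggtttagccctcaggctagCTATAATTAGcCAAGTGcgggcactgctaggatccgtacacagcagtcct
Klhl41 had 4 E-boxes and a MEF2 box in this window, Klhl40 had 3 E-boxes, and Klhl33 had 1 E-box and a MEF2 box. Both patterns read the same on both strands, and the boxes shown do not overlap. Of 32851 promoters of all genes, 66.2% held an E-box and 2.92% a MEF2 box. Of the 30 members analysed here with an entry, an E-box stood in 24 and a MEF2 box in 2 of their 40 promoters. Klhl17 and the members without an entry, such as Klhl24 and Klhl30, were not scanned. A CArG box, the word of serum response factor, was found in 0 of the 40 and in 1.47% of all promoters. A match describes letters only and does not show binding.

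Klhl41, which encodes a partner and stabiliser of nebulin, was the most abundant member in every library. The gene (ENSMUSG00000075307) lies on chromosome 2 from 69670120 to 69684230 in mm10, plus strand, with 6 annotated exons. Its level was 299.6, 349 and 297 FPKM in libraries 1, 2 and 3 labelled KO, against 267, 363 and 353 FPKM in libraries 1, 2 and 3 labelled WT. The 3 libraries labelled KO lay inside the range of those labelled WT, whose library 1 was the lowest of the 6. The log2 difference, KO minus WT on the log2(FPKM + 1) scale, was -0.05 (95% interval -0.34 to 0.25, limma adjusted p = 0.988). It was 0.033 without library 2 labelled WT, 0.014 without library 3 labelled WT and -0.19 without library 1 labelled WT. With 48059 fragments over the 6 libraries, counting error alone gives a CV of 1.12%, against an observed CV of 9.34% among libraries labelled KO and 16.1% among those labelled WT.

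Klhl40, whose protein stabilises leiomodin 3 and nebulin, came next in mean level. It lies on chromosome 9 from 121777607 to 121783818, plus strand, with 6 annotated exons. Its values were 56.2, 61.5 and 49.6 FPKM in libraries labelled KO and 49.7, 81.9 and 90.2 FPKM in libraries labelled WT. Libraries 2 and 3 labelled WT stood above all others, while library 1 labelled WT was level with the lowest library labelled KO. The log2 difference was -0.36 (95% interval -0.83 to 0.11, limma adjusted p = 0.988). Gm47108, a gene of unsettled type in GENCODE, overlaps 21.6% of its exon bases on the opposite strand. The sources used here do not say whether fragments were assigned by strand, so the value is uncertain.

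The pair did not keep 1 ratio across libraries. Klhl41 was 5.33, 5.68 and 5.99 times Klhl40 in FPKM in libraries 1, 2 and 3 labelled KO, and 5.37, 4.43 and 3.92 times in libraries 1, 2 and 3 labelled WT. Library 1 labelled WT again lay within the range of the libraries labelled KO.

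Klhl31 encodes a muscle protein whose loss in mice leads to a myopathy with accumulation of filamin C. It lies on chromosome 9 from 77636500 to 77660127, plus strand. It was at 49.6, 54.7 and 55.8 FPKM in libraries labelled KO and at 58.1, 49.5 and 49.0 FPKM in libraries labelled WT, and the groups overlapped. The log2 difference was 0.03 (95% interval -0.19 to 0.25, limma adjusted p = 0.988). It was -0.0029 without library 2 labelled WT, -0.0091 without library 3 labelled WT and 0.11 without library 1 labelled WT. The order of Klhl40 and Klhl31 was not fixed, since Klhl40 was the higher in 4 of 6 libraries.

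Klhl30 was almost level among libraries labelled KO and uneven among those labelled WT. It lies on chromosome 1 from 91351016 to 91362416, plus strand, with 8 annotated exons. Its values were 30.5, 30.3 and 30.4 FPKM in libraries labelled KO and 26.8, 53.0 and 46.6 FPKM in libraries labelled WT. Libraries 2 and 3 labelled WT were high, and library 1 labelled WT was the lowest of the 6. The CV was 0.332% among libraries labelled KO, below the 3.01% that counting error alone gives for its mean of the 6 libraries, and 32.4% among those labelled WT. The log2 difference was -0.40 (95% interval -0.89 to 0.09, limma adjusted p = 0.988).

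The size of both differences depended on single libraries labelled WT. Without library 1 labelled WT the log2 difference was -0.62 for Klhl40 (adjusted p = 0.0967) and -0.69 for Klhl30 (adjusted p = 0.0770, the smallest of any Klhl gene under any alternative), still short of the threshold of 0.05. Leaving out either of the other libraries labelled WT moved it the other way. It reached -0.20 for Klhl40 without library 3 labelled WT and -0.21 for Klhl30 without library 2 labelled WT. With 1 library labelled KO left out it was -0.43 to -0.28 for Klhl40 and stayed at -0.40 for Klhl30. Over the 16 alternatives the adjusted p lay between 0.0770 and 0.9999 for Klhl30 and between 0.0967 and 0.9999 for Klhl40.

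Klhl33 ran in the other direction across the same libraries. It lies on chromosome 14 from 50888582 to 50897507, minus strand, with 4 annotated exons. Its level was 50.4, 36.9 and 35.3 FPKM in libraries labelled KO and 48.4, 25.3 and 27.5 FPKM in libraries labelled WT. Library 1 of each label was high, and libraries 2 and 3 labelled WT were the lowest of the 6. The log2 difference was 0.31 (95% interval -0.23 to 0.85, limma adjusted p = 0.988), and without library 1 labelled WT it was 0.60 (adjusted p = 0.215). It was 0.15 without library 1 labelled KO and 0.14 without library 2 labelled WT. The ratio of Klhl33 to Klhl30 was 1.65, 1.22 and 1.16 in libraries labelled KO and 1.80, 0.477 and 0.591 in libraries labelled WT.

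Klhl21 encodes a Cullin-3 adaptor that directs Aurora B during cell division in human cells. It lies on chromosome 4 from 152008803 to 152017680, plus strand. It was at 59.3, 47.7 and 43.8 FPKM in libraries labelled KO and at 48.9, 44.3 and 39.2 FPKM in libraries labelled WT. Library 1 labelled KO was the highest and library 3 labelled WT the lowest, and the groups overlapped (log2 difference 0.18, 95% interval -0.12 to 0.47, limma adjusted p = 0.988). The difference was 0.055 without library 1 labelled KO, 0.097 without library 3 labelled WT and 0.27 without library 3 labelled KO. Gm9768 lies opposite 20.5% of its exon bases, which leaves the level of Klhl21 uncertain too.

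**Figure D2:**
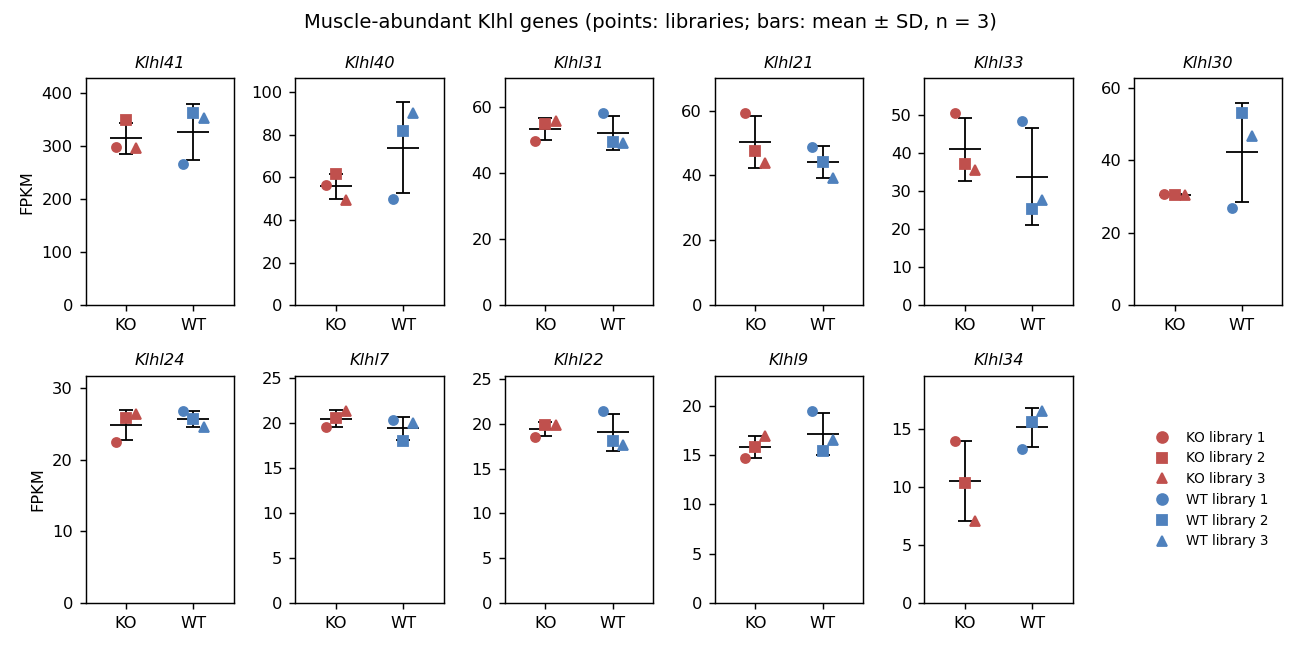
FPKM of the 11 muscle-abundant Klhl genes, each panel with its own linear axis from 0, libraries labelled KO on the left and labelled WT on the right; points are libraries and bars the mean ± SD (n = 3). The groups overlap in every panel, and library 1 labelled WT (circle) departs from libraries 2 and 3 labelled WT most visibly for Klhl40, Klhl33 and Klhl30.

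Among markers, stretch-responsive fibre genes were high in the same libraries labelled WT as Klhl40 and Klhl30. The 5 listed genes (Csrp3, Ankrd1, Ankrd2, Xirp1 and Flnc) were all measured, none was at 0, and they summed to 650.0, 407 and 193 FPKM in libraries labelled KO and to 435, 1769 and 1519.9 FPKM in libraries labelled WT. Libraries 2 and 3 labelled WT were thus high for this list too, of which Flnc is also listed below as a sarcomere partner. The 6 fibroblast markers, none at 0, summed to 218 to 302 FPKM in libraries labelled KO and 209 to 440.3 FPKM in those labelled WT, with libraries 2 and 3 labelled WT at the top. The 6 macrophage markers, again none at 0 in all libraries, summed to 16.6 to 22.1 FPKM in libraries labelled KO and 16.5 to 44.5 FPKM in those labelled WT. The 4 adipocyte markers summed to 18.7, 13.5 and 22.7 FPKM in libraries labelled KO and to 19.7, 38.4 and 49.7 FPKM in libraries labelled WT, and the 6 endothelial markers summed to 138, 120.0 and 134 FPKM in libraries labelled KO and to 103, 160.0 and 155 FPKM in libraries labelled WT. Both lists were again highest in libraries 2 and 3 labelled WT. Schwann and satellite cell markers did not follow this order. The 5 Schwann cell markers summed to 71.4, 60.2 and 68.0 FPKM in libraries labelled KO and to 58.9, 67.1 and 73.7 FPKM in libraries labelled WT. The 4 satellite cell markers summed to 10.9, 8.76 and 9.03 FPKM in libraries labelled KO and to 7.96, 9.06 and 10.7 FPKM in libraries labelled WT. The 9 slow fibre markers summed to 295 to 416 FPKM in libraries labelled KO and to 589, 638 and 331 FPKM in libraries 1, 2 and 3 labelled WT, an order unlike that of Klhl30. The part of these lists in the Klhl values was not tested, and in bulk tissue fewer cells of a type and less RNA per cell cannot be told apart.

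**Figure D3:**
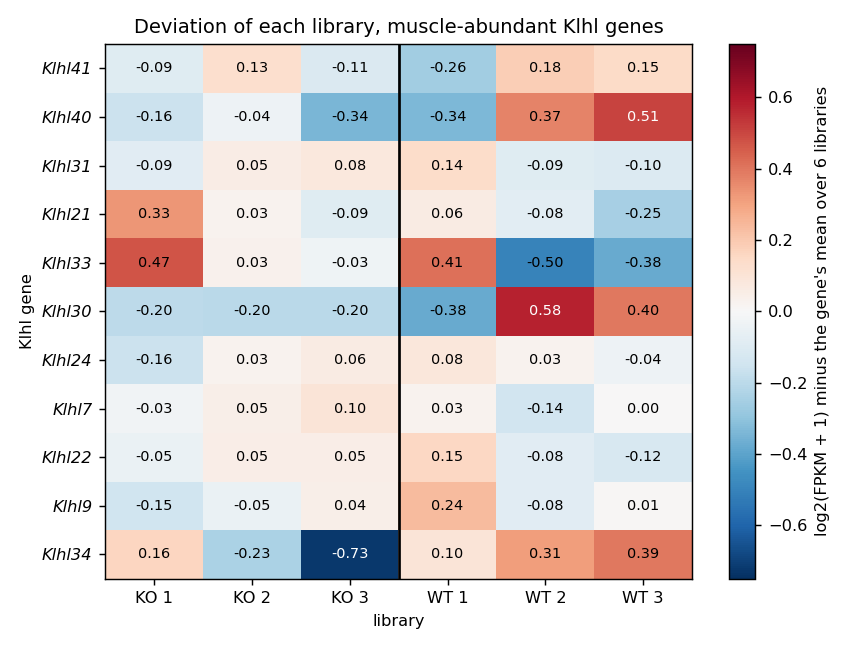
Deviation of log2(FPKM + 1) in each library from the gene's mean over the 6 libraries, for the 11 muscle-abundant Klhl genes; columns are libraries labelled KO (left of the line) and WT (right), red is above and blue below the mean. Libraries 2 and 3 labelled WT are at 0.37 and 0.51 for Klhl40 and at 0.58 and 0.40 for Klhl30, but at -0.50 and -0.38 for Klhl33.

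Klhl34, a gene of a single exon on the X chromosome (157818435 to 157820369, plus strand), was the only member with an unadjusted p under 0.05. It was at 13.9, 10.4 and 7.07 FPKM in libraries labelled KO and at 13.3, 15.6 and 16.5 FPKM in libraries labelled WT. The groups overlapped, since library 1 labelled KO was above library 1 labelled WT, and library 3 labelled KO was the lowest of the 6. The log2 difference was -0.53 (SE 0.21, 95% interval -1.005 to -0.06), with an unadjusted p of 0.0314 and a limma adjusted p of 0.988, while exact permutation of the FPKM between labels (two-sided) gave p = 0.2, the lowest possible with 3 libraries a label being 0.1. Without library 3 labelled KO the log2 difference was -0.30. Only 1473 fragments stood behind the 6 values, for a counting CV of 6.38%.

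The other 4 muscle-abundant genes were steady. Klhl24, mutated in a human skin fragility disorder, was at 22.5, 25.7 and 26.3 FPKM in libraries labelled KO and at 26.8, 25.7 and 24.5 FPKM in libraries labelled WT. Klhl7, mutated in human retinitis pigmentosa, was at 19.5, 20.6 and 21.3 FPKM in libraries labelled KO and at 20.3, 17.9 and 19.9 FPKM in libraries labelled WT. Klhl22, whose human protein marks the mTOR regulator DEPDC5 for breakdown, was at 18.6, 19.9 and 19.9 FPKM in libraries labelled KO and at 21.5, 18.1 and 17.6 FPKM in libraries labelled WT. For these genes the highest library was at most 1.22 times the lowest. Klhl9, a partner of KLHL13 in the cell division ligase and mutated in a human distal myopathy, was at 14.7, 15.8 and 16.9 FPKM in libraries labelled KO and at 19.5, 15.4 and 16.5 FPKM in libraries labelled WT. The protein-coding gene Gm26566 lies opposite 15.8% of the exon bases of Klhl9, whose level is uncertain for that reason. The log2 differences were -0.05 for Klhl24 (95% interval -0.26 to 0.17), 0.08 for Klhl7 (-0.13 to 0.28), 0.03 for Klhl22 (-0.20 to 0.27) and -0.11 for Klhl9 (-0.36 to 0.15), each with a limma adjusted p of 0.988. Differences this close to 0 moved with single libraries: leaving out each in turn gave -0.090 (without library 3 labelled KO) to 0.020 (without library 1 labelled KO) for Klhl24 and 0.023 (without library 2 labelled WT) to 0.11 (without library 1 labelled KO) for Klhl7. It gave -0.018 (without library 3 labelled WT) to 0.12 (without library 1 labelled WT) for Klhl22 and -0.17 (without library 2 labelled WT) to -0.016 (without library 1 labelled WT) for Klhl9.

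Levels per kilobase depend on the gene length that the authors used. The lengths recovered from the FPKM equalled the exon union of the GENCODE annotation for 6 of the 11 muscle-abundant genes. For Klhl33 the recovered length was 1602 bases against an exon union of 6300 bases, and over the longer length its mean would be 9.49 FPKM instead of 37.3 FPKM. For Klhl22 these lengths were 1676 and 5234 bases and the means 6.17 and 19.3 FPKM. With exon unions, 9 Klhl genes would therefore reach 10 FPKM, and Klhl41, Klhl40, Klhl31 and Klhl21 would keep their order. Between neighbours in the order of mean FPKM, only 5 pairs had ranges that did not overlap over the 6 libraries: Klhl41 above Klhl40, Klhl30 above Klhl24, Klhl24 above Klhl7, Klhl8 above Klhl12, and Klhl18 above Klhl20.

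Of the 16 genes between 1 and 10 FPKM, 0 passed the adjusted test. Their log2 differences lay between -0.29 (Klhl11) and 0.19 (Klhl2), with 4 higher and 12 lower in libraries labelled KO and a median of -0.03, where the median over all tested genes was -0.02. At these levels the pseudocount of 1 shrinks a difference: with a pseudocount of 0.1 Klhl11 was at -0.43 and Klhl2 at 0.29, and in voom at -0.47 and 0.30. Without library 3 labelled WT the log2 difference of Klhl11 was -0.45 (unadjusted p = 0.0216, limma adjusted p = 0.9999), and without library 1 labelled KO that of Klhl38 was 0.38 (unadjusted p = 0.0231, limma adjusted p = 0.825). Klhl18 and Klhl23 were the only members of the whole family whose groups did not overlap. Klhl18, an adaptor that acts on Aurora A in human cells, was at 4.50, 4.35 and 4.65 FPKM in libraries labelled KO and at 5.44, 5.09 and 5.91 FPKM in libraries labelled WT (log2 difference -0.23, 95% interval -0.48 to 0.01, limma adjusted p = 0.988). Klhl23 was at 5.46, 4.57 and 5.16 FPKM in libraries labelled KO and at 5.80, 5.66 and 6.55 FPKM in libraries labelled WT (log2 difference -0.21, 95% interval -0.47 to 0.05, limma adjusted p = 0.988). Counting error alone gives a CV of 8.18% for Klhl18 and 9.51% for Klhl23. Their observed CVs were no larger, at 3.40% and 9.02% among libraries labelled KO and 7.54% and 8.04% among those labelled WT. These 2 of 27 are 7.41% of the tested members, where the groups did not overlap for 9.48% of all tested genes. Both were lower in libraries labelled KO, and 0 members were higher without overlap. Of the 1079 tested genes without overlap, 642 were lower and 437 higher in libraries labelled KO. These are 5.64% and 3.84% of all 11383 tested genes.

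Some others in this range, such as Klhl12 and Klhl20, are adaptors of widely used pathways. Klhl12, whose human protein acts on the COPII coat of secretory vesicles and on dishevelled, was at 7.53, 8.07 and 7.58 FPKM in libraries labelled KO and at 7.72, 7.18 and 7.31 FPKM in libraries labelled WT. Klhl8 was at 8.57, 9.88 and 11.04 FPKM in libraries labelled KO and at 8.70, 11.2 and 9.61 FPKM in libraries labelled WT. Klhl38 was at 5.45, 8.53 and 8.85 FPKM in libraries labelled KO and at 7.36, 6.29 and 5.78 FPKM in libraries labelled WT, but the antisense gene Gm15943 overlaps 65.4% of its exon bases. Klhl20, whose human protein marks DAPK1 and ULK1, averaged 4.07 ± 0.275 FPKM in libraries labelled KO and 3.78 ± 0.180 FPKM in those labelled WT. In each of these the groups overlapped. Klhl26 and Klhl25 averaged 4.995 and 3.66 FPKM over the 6 libraries, Klhl5 and Klhl28 3.38 and 3.16 FPKM, and Klhl13 2.07 FPKM. Klhl6, known from B lymphocytes, was at 1.81, 1.33 and 2.07 FPKM in libraries labelled KO and at 0.944, 1.87 and 2.71 FPKM in libraries labelled WT, the widest spread among these genes. Klhl11, Klhl15, Klhl2 and Klhl42 averaged 1.75, 1.66, 1.64 and 1.42 FPKM over the 6 libraries.

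The 9 genes below 1 FPKM were not tested. Klhl36 was just short at a mean of 0.996 FPKM. Klhl29, Klhl4 and Klhl3 averaged 0.858, 0.824 and 0.805 FPKM. Klhl3 is the kidney adaptor of WNK kinases and its close relative Klhl2 was tested above. Klhl10, known from developing sperm, gave 24 fragments in the 6 libraries together, Klhl32 gave 7 and Klhl35 gave 6. Klhl1, a neuronal gene, and Klhl14, known from B lymphocytes, were above 0 in 1 library each. The shortest gene length that fitted the FPKM was kept, which gives such a gene 1 fragment by construction. Longer lengths would give more, so the fragment counts in this paragraph are the fewest that fit. For 1 fragment the 95% exact Poisson interval is 0.0253 to 5.57 fragments, which covers counting error only. Pooled over the 6 libraries and at the shortest fitting lengths, that upper bound equals 0.0229 FPKM for Klhl1 and 0.0448 FPKM for Klhl14.

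Across the family, 0 of the 27 tested members reached an adjusted p of 0.05 in limma (Benjamini-Hochberg), and 0% of all 11383 tested genes did. The adjusted p of the members lay between 0.988 and 0.9998. At an unadjusted p under 0.05 there was 1 member, Klhl34, or 3.70% of those tested, beside 4.59% of all tested genes. Klhl34 was lower in libraries labelled KO. Of the 523 tested genes at that p, 377 were lower in libraries labelled KO, which is 3.31% of all 11383 tested genes. In limma voom on whole fragments, 0 members passed and 2 of 27 had an unadjusted p under 0.05, Klhl34 and Klhl18, beside 4.11% of all genes in that fit. Of the 27, 9 were higher and 18 lower in libraries labelled KO, with a median log2 difference of -0.04, where the median over all tested genes was -0.02. Among the 11 muscle-abundant genes 5 were higher and 6 lower, with a median of -0.05. Without library 1 labelled WT, 4 of 28 members had an unadjusted p under 0.05 (Klhl30, Klhl40, Klhl34 and Klhl33), as did 11.9% of all genes tested in that fit, and 0 members passed the adjusted test.

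**Figure D4:**
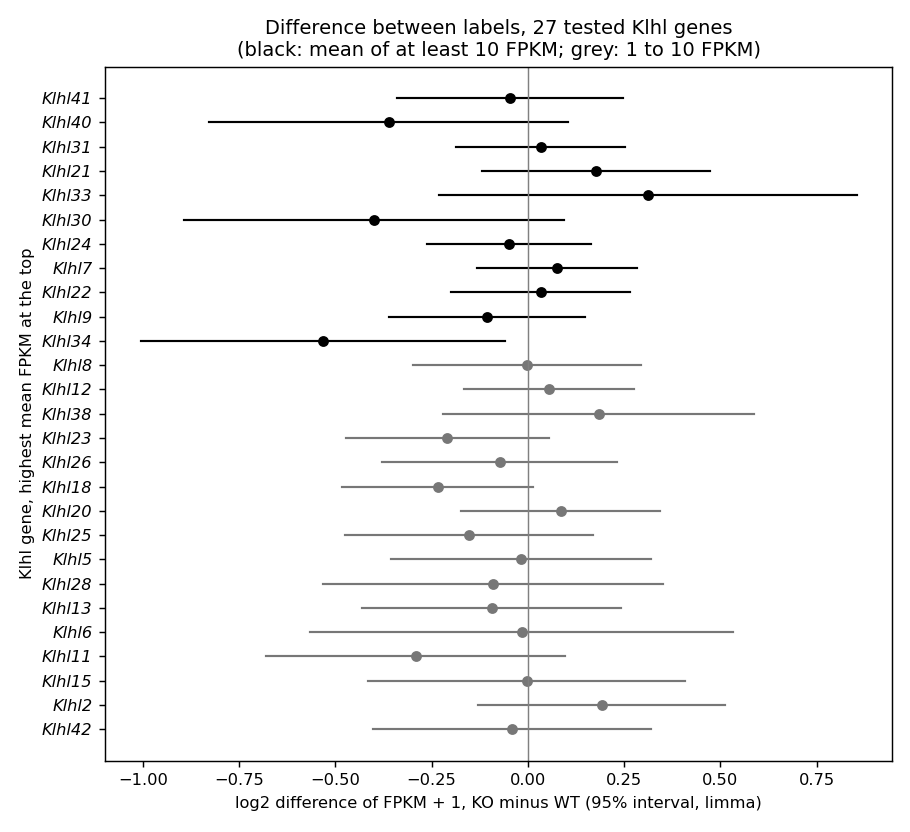
Log2 difference of FPKM + 1, libraries labelled KO minus libraries labelled WT, with its 95% interval from limma, for the 27 tested Klhl genes in order of mean FPKM; black marks the 11 muscle-abundant genes and grey the other 16. Every interval except that of Klhl34 (-1.005 to -0.06) includes 0, and 0 genes passed the adjusted test.

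The ligase machinery that Klhl proteins plug into was measured beside them. Of 26 tested genes of the Cullin-3 core, neddylation and its removal, 15 were higher and 11 lower in libraries labelled KO, 0 passed, and the median log2 difference was 0.01. Cul3, the scaffold itself, was at 148, 137 and 145 FPKM in libraries labelled KO and at 130.1, 119 and 116 FPKM in libraries labelled WT. The groups did not overlap, as for 9.48% of all tested genes (log2 difference of Cul3 0.24, 95% interval 0.06 to 0.41, unadjusted p = 0.0155, limma adjusted p = 0.988). Ube2m, the enzyme that hands NEDD8 to cullins, averaged 118 ± 14.3 FPKM in libraries labelled KO and 125 ± 7.47 FPKM in those labelled WT. Nedd8, named after its values were seen, averaged 109.8 ± 6.24 FPKM in libraries labelled KO and 128 ± 4.99 FPKM in those labelled WT (log2 difference -0.22, unadjusted p = 0.0204, limma adjusted p = 0.988). Cul3 and Nedd8 were the 2 of 26 genes of this list with an unadjusted p under 0.05, beside 4.59% of all tested genes.

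Of 10 tested BTB-kelch genes outside the Klhl numbering, 4 were higher and 6 lower in libraries labelled KO, 0 passed, and the median log2 difference was -0.04. Ivns1abp averaged 53.4 ± 7.67 FPKM in libraries labelled KO and 49.4 ± 4.77 FPKM in those labelled WT. Keap1, the adaptor that holds the oxidative stress factor NRF2 in check, averaged 22.0 ± 2.05 FPKM in libraries labelled KO and 21.8 ± 0.238 FPKM in those labelled WT.

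Among sarcomere partners of the muscle Klhl proteins, Neb, the gene of the giant thin filament protein nebulin, was at 1134, 1164 and 974 FPKM in libraries labelled KO and at 872, 1273 and 1122 FPKM in libraries labelled WT. Its lowest library was thus library 1 labelled WT, as for Klhl41 and Klhl30. Nrap, a partner of KLHL41 in myofibril assembly, was at 402, 362 and 249.8 FPKM in libraries labelled KO and at 291, 446 and 392 FPKM in libraries labelled WT. Of the 5 listed partners (Neb, Lmod3, Nrap, Flnc and Tfdp1), 2 were higher and 3 lower in libraries labelled KO, 0 passed, and the median log2 difference was -0.07. Of 18 tested clients and partners reported for other Klhl proteins, 9 were higher and 9 lower, 0 passed, and the median was 0.00. Wnk1, a kinase of the WNK family that KLHL3 and KLHL2 act on, averaged 80.0 ± 4.83 FPKM in libraries labelled KO and 82.6 ± 10.2 FPKM in those labelled WT. Ulk1, the autophagy kinase, averaged 68.2 ± 9.69 FPKM in libraries labelled KO and 65.7 ± 7.27 FPKM in those labelled WT. Of the 11 nemaline myopathy genes, Klhl40 and Klhl41 included, 1 was higher and 10 lower in libraries labelled KO, 0 passed, and the median log2 difference was -0.07. The median over all tested genes was -0.02, and among the 10, Mypn (-0.0012), Kbtbd13 (-0.04) and Klhl41 (-0.05) were close to 0. With library medians subtracted Klhl41 was at 9.34e-05, so the direction of such small differences depends on the scaling. The largest difference of the 10 was that of Tnnt1, a slow fibre marker, at -0.95 (95% interval -2.11 to 0.21, limma adjusted p = 0.988). Tnnt1 was at 5.39, 11.4 and 9.18 FPKM in libraries labelled KO and at 24.5, 30.7 and 6.24 FPKM in libraries labelled WT, and the groups overlapped. The tropomyosin gene Tpm3, also a slow fibre marker and chosen here with its values known, had 36.5, 42.2 and 37.1 FPKM in libraries labelled KO and 58.2, 63.3 and 43.8 FPKM in libraries labelled WT. Its groups did not overlap, as for 9.48% of all tested genes (log2 difference of Tpm3 -0.49, 95% interval -0.80 to -0.18, unadjusted p = 0.00685, limma adjusted p = 0.988). Where 4.59% of all tested genes had an unadjusted p under 0.05, it was the 1 of these 11 nemaline myopathy genes that did. The most abundant of them, the skeletal actin gene Acta1, averaged 15539 ± 1641 FPKM in libraries labelled KO and 17580 ± 1736 FPKM in those labelled WT, and the tropomyosin gene Tpm2 averaged 4412 ± 244 FPKM in libraries labelled KO and 4800.5 ± 432 FPKM in those labelled WT (SD, n = 3 each throughout).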

How the data were processed

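Per the file headers, the authors deposited 1 table of FPKM per gene for each library. TopHat2 2.1.1, Cufflinks 2.2.1 and build mm10 are named in the submitters' processing notes, while the sources used here do not give the annotation release, strand assignment or filters. Groups and replicate numbers came from the titles. Symbols, positions and exons came from GENCODE vM21, which shares the mm10 assembly, and 40452 genes had a symbol.

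Log2(FPKM + 1) was compared in limma 3.58.1 (R 4.3.3), with a trend of variance on mean and no rescaling, over genes averaging at least 1 FPKM. P-values were adjusted over all tested genes (Benjamini-Hochberg, 0.05), and intervals are 95%. FPKM steps gave whole fragments for all 23559 detected genes (100%, tolerance 0.002 of a fragment), which supplied the library totals, counting errors and a voom fit. For each gene the shortest fitting length was kept, so where few libraries were above 0 the count is the fewest that fits. Mitochondrial genes took 15.2% to 19.7% of fragments. No library pair agreed within sampling noise (lowest chi-square 7.04 per degree of freedom). Python 3.11.15, pandas 2.3.3, scipy 1.17.1 and matplotlib 3.10.9 were used.

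Members, gene lists and tests were chosen with earlier results of these data known. The text names every muscle-abundant member, other members with an unadjusted p under 0.05 or no overlap in full, and from each list the genes past the test or else the 2 highest. Outside this rule, Klhl12, Klhl8, Klhl38 and Klhl6 were also given library by library, and Nedd8, Tpm3 and Tnnt1 were added with their values known.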

Additional observations from a re-analysis of the deposited data

How the results depend on the processing

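The alternatives were quantile normalization, centring on library medians, rescaling without mitochondrial genes, a pseudocount of 0.1, no filter, a filter at a mean of 5 FPKM, no variance trend, a replicate block, library weights, voom on whole fragments, and leaving out each library. The count of Klhl members past the test stayed at 0 in all 16. Genes past the test numbered 0 throughout, and 0 to 3 with 1 library left out. Members at an unadjusted p under 0.05 numbered 1 of 27 in the reported fit, and 2 of 27 each with the replicate block, without a variance trend and with voom. Library weights gave 6 of 27 (Klhl18, Klhl23, Klhl30, Klhl33, Klhl34 and Klhl40). Leaving out 1 library gave 0 to 4 of 27 or 28. All genes at that p numbered 523 in the reported fit, 472 with the block, 548 without the trend, 468 with voom and 1413 with library weights, each of 11383. With 1 library left out they ranged from 341 of 11352 (without library 3 labelled WT) to 1357 of 11425 (without library 1 labelled WT). Same-numbered libraries did not deviate together over all tested genes (correlations 0.0236, -0.0408 and 0.0232 for numbers 1, 2 and 3). This gave no sign of pairing by number, but with 3 libraries a label it cannot show that the libraries are unpaired. Of 207 log2 differences of the 13 genes given in full by the naming rule (the 11 muscle-abundant genes, Klhl18 and Klhl23), 198 kept their direction. The reversals were near 0: Klhl41 with medians subtracted (9.34e-05), Klhl24 with library weights (0.0029), and with 1 library left out Klhl41 (-0.19 to 0.033), Klhl31 (-0.0091 to 0.11), Klhl22 (-0.018 to 0.12) and Klhl24 (-0.090 to 0.020); the cause was not tested. A minimum of 20 FPKM left 7 muscle-abundant genes with a share of 80.99%, and one of 5 FPKM gave 15 with 94.7%, against 11 with 90.5%. The share was 91.4% with exon unions, an alternative chosen after seeing the data, and 90.4% to 91.9% with 1 library left out. Differences of low genes are limited by depth.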
